A study of Mus musculus with 4 samples.

Results

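The 36 genes described here encode proteins of the presynaptic terminal and of the scaffold on the receiving side of the synapse. They were taken by gene name from a fixed list out of 22084 genes in the deposited count tables, and all 36 were found. The rule uses no measured value, but the list was chosen with earlier results of these data known. Messenger RNA was counted in 4 libraries of brain tissue from mouse embryos of the B6D2F2 strain at embryonic stage E13.5. Libraries KO26F and KO23M are labelled TCF20-/-, that is, with both copies of Tcf20 disrupted. WT25F is labelled TCF20+/+. WT22M is called wild type in its title and TCF20+/- in its genotype field, so WT25F and WT22M are together called carriers here, since each holds at least 1 wild-type copy under either label. The labels name telencephalic tissue in 1 field and dissected cerebral cortex in another. They give no litter, no pooling and no dissection batch, so the spread between libraries may be technical as well as biological. The sources used here do not give the deleted stretch of Tcf20, so the Tcf20 counts, with a log2 fold change of -0.18 (SE 0.10) between KO and carriers, do not check the labels.

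At a chemical synapse, vesicles filled with transmitter dock at a protein meshwork called the active zone. Calcium that enters through nearby channels acts on synaptotagmin, and the SNARE proteins syntaxin, SNAP-25 and synaptobrevin then fuse the vesicle with the membrane. Across the cleft, neurexins of the axon bind neuroligins of the dendrite, and PSD-95, SAPAP, Shank and Homer proteins build the layered scaffold that anchors receptors. At this stage of forebrain development most neurons are newly born and still extend axons, few synapses exist, and many of these genes are already transcribed in young neurons.

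The libraries were of similar depth, from 17791641 to 18509743 counts. All 36 genes passed the low-count filter, which kept 16252 genes for testing. Their counts ran from 186 for Nlgn1 in KO23M to 10778 for Nlgn2 in WT22M. Marker levels differed between libraries. WT22M stood apart for choroid plexus, whose 8 markers summed to 1005, 783, 947 and 202 CPM in KO26F, KO23M, WT25F and WT22M, and 99 of 14807 genes were at least 2-fold below all other libraries in WT22M, against 28 to 42 in each of the others. The summed level of 7 erythroid markers was highest for WT25F, at 1216 CPM against 715 to 915. Most of that sum was Hba-a1, at 866 CPM against 485 to 559 in the other libraries. Marker by marker, WT25F was the highest for 3 of the 7, and each KO library for 2. The summed level of 10 dividing-cell genes was 879.5 and 851 CPM (counts scaled to the library total) in KO26F and KO23M, and 775 and 742 in WT25F and WT22M. The summed level of 10 genes of ventral GABAergic neurons was 1328 and 1356 in the KO libraries, and 1194 and 1198 in the carriers. The 12 neuron markers, which should mark the cells that transcribe synaptic genes, summed to 6437, 6515, 6769 and 6522 CPM in KO26F, KO23M, WT25F and WT22M, so the tissue held neurons in every library and WT25F was the highest of the 4. The 10 markers of cortical projection neurons summed to 3095, 2873, 2863 and 3067 CPM in the same order, so both neuron types of the labelled tissue were present. In bulk tissue, fewer neurons and less RNA per neuron cannot be told apart.

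Levels were compared between genes per exon length, as CPM per kilobase (kb) of exon, because a long transcript collects more reads than a short one at the same abundance. They covered a 395-fold range, from 0.836 for Nlgn1 to 330.3 for Gap43, with a median of 9.36. Gap43, a growth-cone protein bound to the membrane of extending axons, was thus the most abundant of the 36, with a level above that of 99.45% of all genes tested. The median of this share over the 36 was 66.35%. Of the 35 pairs of neighbours in the order of levels, 14 had ranges over the 4 libraries that did not overlap. By this length the upper end of the order was well separated, since each of the top 5 genes (Gap43, Rab3a, Vamp2, Nlgn2 and Cplx2) stood above the next in every library. Lower down, Syn1, Cplx1, Syt11 and Shank1, at 51.1, 50.5, 48.8 and 46.8 CPM per kb, overlapped one with the next, as did the 4 genes Dlgap1, Sv2b, Pclo and Rims2, between 1.51 and 1.30.

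**Figure D1:**
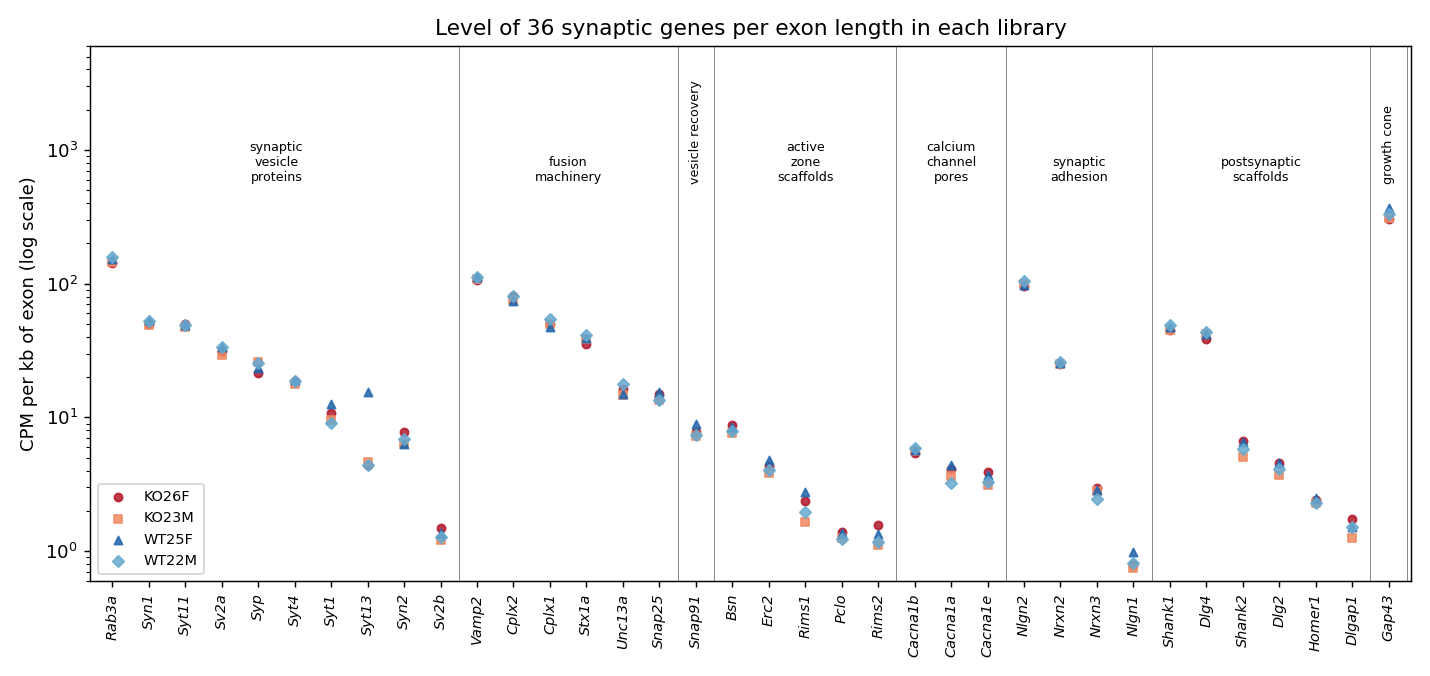
Level of each of the 36 genes in each of the 4 libraries, in CPM per kb of exon on a log scale, with genes grouped by role and ordered by mean level within a role. Points of 1 gene lie close together beside the 395-fold range between genes, and Syt13 in WT25F is the point farthest from the other libraries of its gene.

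Among the 10 synaptic vesicle proteins the mean level ran from 1.34 CPM per kb for Sv2b to 151 for Rab3a, a small GTPase that sits on vesicles and binds RIM proteins of the active zone. The calcium sensor of fast release, Syt1, stood at 10.5, below Syt11 at 48.8 and Syt4 at 18.6, which encode other members of the synaptotagmin family. Synapsin 1, which tethers vesicles to one another and to the cytoskeleton, was at 51.1 and its relative Syn2 at 6.84. The vesicle glycoprotein Sv2a was at 32.0, and Syp, which encodes the abundant vesicle membrane protein synaptophysin, at 24.1.

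The 6 genes of the fusion machinery had a median level of 44.5 CPM per kb, the highest median among the roles with several members. Vamp2, the synaptobrevin of the vesicle membrane, led at 109.8. The complexins Cplx2 and Cplx1, which clamp and promote SNARE assembly, were at 78.0 and 50.5. Stx1a, the syntaxin of the plasma membrane, was at 38.6, the priming factor Unc13a at 15.96 and Snap25 at 14.4. Snap91, which encodes the clathrin adaptor AP180 that helps retrieve vesicle membrane, was at 7.85.

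The large proteins of the active zone were lower, with a median of 2.19 CPM per kb over 5 genes. Bsn (bassoon) was the highest at 8.21, followed by Erc2 at 4.24, Rims1 at 2.19, Pclo (piccolo) at 1.31 and Rims2 at 1.30. The pore-forming subunits of the presynaptic calcium channels, Cacna1b (N-type), Cacna1a (P/Q-type) and Cacna1e (R-type), lay close together at 5.66, 3.85 and 3.51.

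The adhesion genes differed most among themselves. Nlgn2, the neuroligin of inhibitory synapses, was at 99.4 CPM per kb and Nlgn1, the neuroligin of excitatory synapses, at 0.836, with Nrxn2 at 25.4 and Nrxn3 at 2.78. On the postsynaptic side Shank1 was at 46.8 and Dlg4, which encodes PSD-95, at 41.8, whereas Shank2 stood at 6.03, Dlg2 at 4.24, Homer1 at 2.38 and Dlgap1 at 1.51. Measured over the longest transcript in place of all exons together, the median level was 15.8, and 3 of the 36 genes moved by more than 3 places in the order.

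Each gene was also close to constant over the 4 libraries. The median ratio of the highest to the lowest library was 1.18, against 1.24 over all genes tested, and 34 of 36 genes stayed under 1.5. The exceptions were Rims1, at 1.68, and Syt13, at 3.55.

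The promoters of these genes are described because all 36 genes were transcribed in this tissue. RefSeq windows on GRCm38.p6, from 250 bases before to 50 bases after a transcription start, were at hand for 26 of the 36. The median number of CpG dinucleotides per window was 18.5, against 7 over 32851 windows of all genes, and 12 of 26 (46.2%) held at least 20, against 26.5% of all windows. With every start of these genes counted, as in the latter, the median over 41 windows was 14 and 31.7% held at least 20. Bsn was the richest of the 26. The 250 bases before its start (chr9:108190384-108190633, minus strand) hold 32 CpG, and the same stretch of Sv2b (chr7:75309263-75309512, minus strand) holds 7. Both are shown 5′ to 3′, with each CpG in capitals, for contrast:
Bsn: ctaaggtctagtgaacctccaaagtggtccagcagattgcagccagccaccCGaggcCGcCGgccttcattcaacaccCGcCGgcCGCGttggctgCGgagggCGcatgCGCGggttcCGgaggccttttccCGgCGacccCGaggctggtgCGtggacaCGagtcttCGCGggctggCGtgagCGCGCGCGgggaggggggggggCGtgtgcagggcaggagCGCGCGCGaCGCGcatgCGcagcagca
Sv2b: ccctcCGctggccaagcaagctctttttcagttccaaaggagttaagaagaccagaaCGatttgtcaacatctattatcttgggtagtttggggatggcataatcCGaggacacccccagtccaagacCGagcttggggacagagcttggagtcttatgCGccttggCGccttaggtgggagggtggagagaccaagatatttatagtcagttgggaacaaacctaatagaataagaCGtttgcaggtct

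Short motifs were searched on both strands of the 26 windows. The GC box GGGCGG was found in 16 of 26 (61.5%), against 35.7% of all windows. These 26, also used for the CpG counts, are the windows nearest the deposited gene start. For Cacna1e, Nrxn3 and Cplx2 the nearest one still lies 158581, 71628 and 68793 bases away, and for Homer1 and Syt11 4122 and 2565. Over all 41 windows of the same genes the share with a GC box was 18 of 41 (43.9%). The cyclic-AMP response element TGACGTCA was found in 1 of 26, Syn1, against 1.79% of all windows. Its first base lies at position -159, counted from the transcription start, and is shown with its flanks on the minus strand (chrX:20921059-20921088), the element in capitals:
Syn1: caaaggctgacTGACGTCActcactagccc
The TATA box TATAAA was found in 1 of 26, Sv2b, and in 3 of 41, against 13.6% of all windows. The match lies on the opposite strand at position -50, inside the stretch printed above. The core of the RE1 element, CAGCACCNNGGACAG, to which the neuronal gene repressor REST binds, was found in 0 of 26 and in 0.0365% of all windows. Exact matches to the RE1 core are rare, in 12 of 32851 windows, so 0 of 26 does not inform on REST sites in these genes. The GC box overlaps the CpG count, since its letters contain that dinucleotide, and a match is a description of the letters only.

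The main comparison asked whether the level of any of these genes differed between the KO and the carrier libraries. None of the 36 passed the threshold in the quasi-likelihood test of edgeR (Benjamini-Hochberg adjusted p under 0.05), at a background of 0.0615% of genes called, 10 of 16252. All 36 had the same adjusted p of 0.9997. Of the 36, 0 had an unadjusted p under 0.05, against 464 of all genes (2.86%), and DESeq2 and limma voom also called 0 of the 36. The fold changes were small. For 33 of the 36 the 95% interval lay within 1.5-fold either way, against 64.6% of all genes tested, and the exceptions were Syt13, Rims1 and Nlgn1.

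The signs were uneven all the same. The log2 fold change was below 0 for 28 of 36 genes (77.8%), with a median of -0.056, against 49.3% and a median of 0.002 over all genes tested. Leaving out 1 library at a time moved these values. Of the 36, 34 were below 0 (median -0.089) without KO26F and 23 (median -0.038) without KO23M. Among the carriers, leaving out WT25F gave 24 (median -0.033) and leaving out WT22M gave 28 (median -0.059), so the size of the shift depended on the library left out. Both KO libraries were below both carriers for 10 of 36 genes, at a background of 13.4% of genes, and above both for 0 of 36, at a background of 13.6%. The 10 were Syn1, Sv2a, Rab3a, Stx1a, Vamp2, Cacna1b, Nrxn2, Nlgn1, Shank1 and Gap43. They come from 6 of the 8 roles, none of them from the active zone scaffolds or from vesicle recovery. On the TMM scale of the test, an alternative added after the data were seen, 9 of 36 were below, beside 2198 of all 16252 genes, and 8 of these were shared: Stx1a and Cacna1b left the list and Syt4 joined it. On that scale 1 of 36, Nrxn3, was above, beside 2253 of all genes. The 36 genes together summed to 5692 and 5597 CPM in KO26F and KO23M, and to 5968 and 5920 in WT25F and WT22M. The dividing-cell and ventral GABAergic markers were higher in the KO libraries, as given above. The 8 mesenchyme and meninges markers summed to 329.9 and 343 CPM in KO26F and KO23M and to 409 and 416 in WT25F and WT22M. The 8 endothelium and pericyte markers summed to 349.6 and 353 against 395 and 393, and all 8 of each list had a log2 fold change below 0. Of the 12 neuron markers 9 had a log2 fold change below 0 and 3 above (median -0.032). Of the 10 markers of cortical projection neurons 4 were below 0 and 6 above (median 0.004). The part of these cell types in the lower synaptic levels was not tested.

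**Figure D2:**
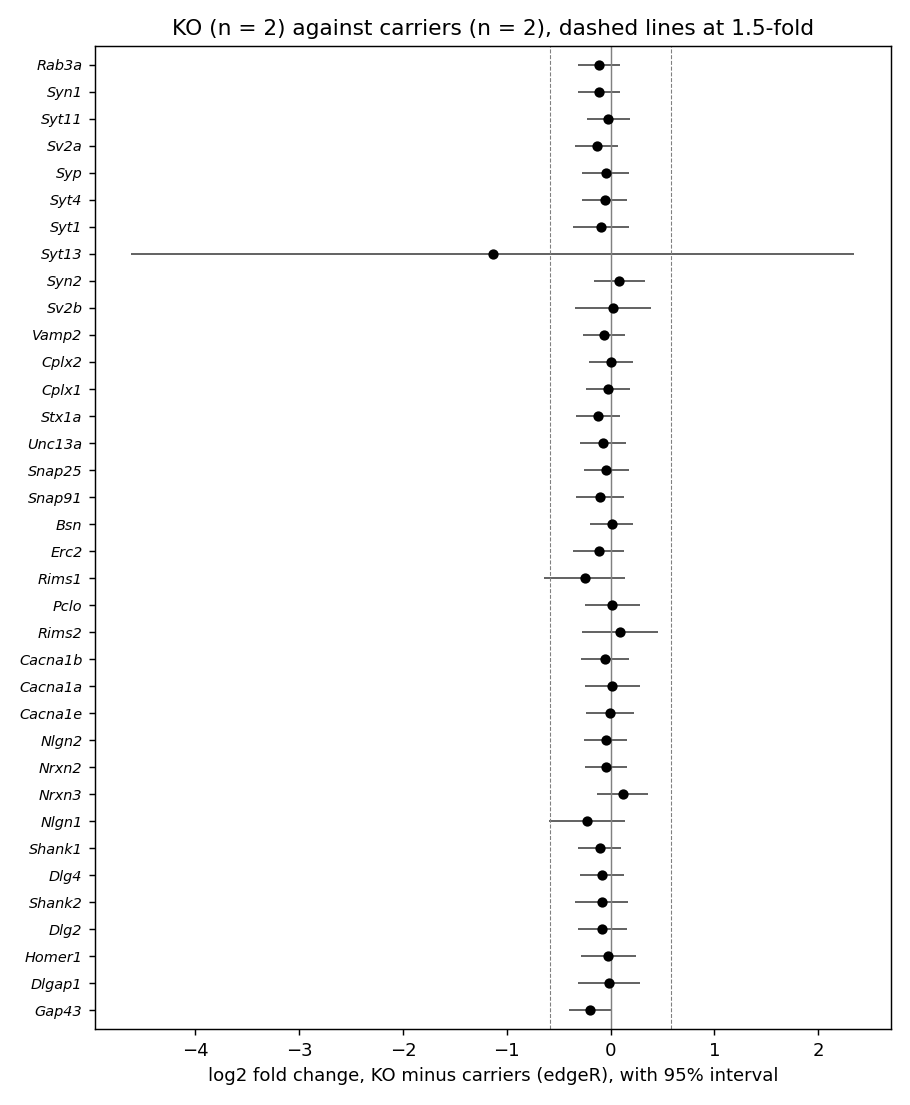
Log2 fold change, KO minus carriers, of each of the 36 genes with its 95% interval from edgeR (2 libraries a group), and dashed lines at 1.5-fold either way. Of the 36 points 28 lie left of 0, and only Syt13, Rims1 and Nlgn1 have intervals that reach past the dashed lines.

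Gap43 (chr16:42248442-42340651, minus strand) had the smallest p of the 36. It stood at 465 and 474 CPM in the KO libraries KO26F and KO23M, against 563 for WT25F and 509 for WT22M, so the KO libraries lay close together and both were below the carriers, of which WT25F was the higher. The group means were 469.6 ± 6.23 (SD, n = 2) for KO and 536 ± 38.3 (SD, n = 2) for carriers. The log2 fold change was -0.19 (SE 0.10, 95% interval -0.40 to 0.013), with an unadjusted p of 0.0645 in edgeR, which did not pass. With the title letter as a replicate block its adjusted p in edgeR was 0.0933, which did not pass either.

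Among the vesicle proteins, 8 of 10 had a log2 fold change below 0. Sv2a, the vesicle glycoprotein that is the target of the drug levetiracetam, had 146 and 137 CPM in KO26F and KO23M, and 155 in both WT25F and WT22M. Both KO libraries were below carriers that were nearly equal, and the log2 fold change was -0.14 (SE 0.10, edgeR unadjusted p 0.182). Rab3a stood at 319.9 and 326 CPM in the KO libraries, and at 342 and 354 in WT25F and WT22M, again without overlap (log2 fold change -0.11, SE 0.10). Syn1 gave 164 and 161 against 177 and 173 (-0.11, SE 0.10). Syn2 did not follow it: KO26F was the highest library at 54.8 CPM, and KO23M at 44.3 was level with WT25F at 44.3, below WT22M at 48.9. Apart from Syt13, described below, the other vesicle genes lay between -0.093 for Syt1 and 0.022 for Sv2b, with Syp, Syt4 and Syt11 at -0.049, -0.056 and -0.022.

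In the fusion machinery 5 of 6 log2 fold changes were below 0, from -0.12 to 0.003. Stx1a stood at 94.0 and 103 CPM in KO26F and KO23M, and at 105 and 109 in WT25F and WT22M. The KO and carrier ranges nearly touched and overlapped under TMM scaling, and the log2 fold change was -0.12 (SE 0.10, edgeR unadjusted p 0.252). Vamp2, with 405 and 414 CPM against 427 and 426 (log2 fold change -0.062, SE 0.10), also kept the groups apart, by a narrow margin. Snap25, Cplx1 and Unc13a, at -0.040, -0.024 and -0.075, overlapped between the groups. Cplx2 is the member with a value closest to 0 here, with 398, 373, 366 and 401 CPM in KO26F, KO23M, WT25F and WT22M, so that each group held both a high and a low library. Snap91 stood at 71.4 and 66.8 CPM in the KO libraries and at 81.1 and 67.2 in the carriers, where WT25F alone was high (-0.10, SE 0.11).

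The active zone scaffolds and calcium channels showed no common side, with 2 of 5 and 2 of 3 below 0. Rims1, which links calcium channels to vesicles, had the largest log2 fold change of the 36 after Syt13, at -0.25 (SE 0.19, edgeR unadjusted p 0.196). That value rests on single libraries, since it was -0.51 without KO26F and -0.036 without KO23M, and leaving out WT25F or WT22M gave -0.0092 or -0.46. Its values were 17.3 and 12.2 CPM in KO26F and KO23M, and 20.4 and 14.6 in WT25F and WT22M. KO26F lay above WT22M, so the groups overlapped, and within each group the library with the letter M in its title was the lower. Bsn gave 140.1 and 123 CPM in the KO libraries and 135 and 126 in the carriers (0.0089, SE 0.10). Erc2, Pclo and Rims2 had log2 fold changes of -0.12, 0.018 and 0.091, and Cacna1a and Cacna1e of 0.015 and -0.0065. Cacna1b gave 54.3 and 56.2 CPM against 56.3 and 58.4 (-0.055, SE 0.11), a difference smaller than the standard error, and the groups overlapped under TMM scaling.

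Of the adhesion genes, Nlgn1 held the lowest single count of all 36, with counts of 193, 186, 239 and 193 in KO26F, KO23M, WT25F and WT22M. That corresponds to 10.65, 10.05, 13.32 and 10.85 CPM, so WT22M was close to the KO libraries and WT25F stood above the rest (-0.23, SE 0.18). Nlgn2 was at 558 and 574 CPM in the KO libraries and at 562 and 606 in the carriers (-0.047, SE 0.10). Nrxn2 varied least of all 36 over the 4 libraries, with 346 and 345 CPM in KO26F and KO23M and 353 and 358 in WT25F and WT22M, a highest to lowest ratio of 1.04 (-0.046, SE 0.10). Nrxn3 had the largest log2 fold change above 0, at 37.3 and 35.8 CPM against 36.2 and 31.1 (0.12, SE 0.12).

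All 6 postsynaptic scaffolds had a log2 fold change below 0, from -0.11 to -0.019. Shank1 stood at 475 and 473 CPM in KO26F and KO23M and at 503 and 516 in WT25F and WT22M. Replicates were close and the groups did not overlap, with a log2 fold change of -0.11 (SE 0.10, edgeR unadjusted p 0.290). Dlg4 was at 513 CPM in KO26F, and at 562, 560.2 and 578 in KO23M, WT25F and WT22M, so KO26F alone was low (-0.084, SE 0.10). Homer1 stayed between 27.5 and 29.7 CPM in all 4 libraries (-0.022, SE 0.13). Shank2, Dlg2 and Dlgap1, at -0.086, -0.079 and -0.019, overlapped between the groups.

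The title letters F and M give pairs of libraries, KO26F with WT25F and KO23M with WT22M, that share no library. In both pairs 18 of 36 genes were lower in the KO library, against 24.7% of all genes tested, and 1 of 36, Nrxn3, was higher in both, against 26.2%. With library totals in place of TMM factors Pclo joined it, for 2 of 36 higher, and 18 stayed lower. The median log2 ratio of the 36 was -0.054 in the F pair and -0.071 in the M pair. The pairs differed in number too, with 24 genes lower in the F pair and 29 in the M pair. KO23M was the lowest of the 4 libraries for 19 of 36 genes, against 28.1% of all genes tested, and the highest for 1, against 21.0%. WT25F was the highest for 15, against 25.4% of all genes tested, and the lowest for 3, against 20.1%.

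Gene length moved with the letters. The 36 genes are long, with a median span from first to last exon of 99.9 kb against 24.95 kb for all protein-coding genes tested, and 11 of 36 span over 300 kb against 3.57%. All 11 of these were lower in KO23M than in KO26F, as were 78.9% of all genes of that span, with a median log2 difference of -0.24 against -0.17. Of the 11, 10 were lower in WT22M than in WT25F, against 72.8% of all such genes, with medians of -0.17 and -0.13. Genes under 10 kb went the other way, with medians over all genes of 0.12 and 0.070. In the median, long genes thus read lower in the M library of each arm. The long synaptic genes Rims1, Rims2, Shank2, Dlgap1 and Dlg2 had log2 differences between KO23M and KO26F of -0.46, -0.46, -0.37, -0.43 and -0.24. Between WT22M and WT25F the same genes had -0.45, -0.17, -0.14, 0.017 and -0.13, so Dlgap1 was the exception among the 11. Each arm of the main comparison holds 1 library of each letter. With the median of its span class subtracted from each gene, an alternative chosen after the data were seen, the median of the 36 was -0.052. The class medians of KO minus carriers lay between -0.012 and 0.013, so the subtraction could move each value only a little. Of the 28 genes below 0, 27 remained so, while Cacna1e crossed to 0.0051 and Bsn crossed from above 0 to -0.0041.

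**Figure D3:**
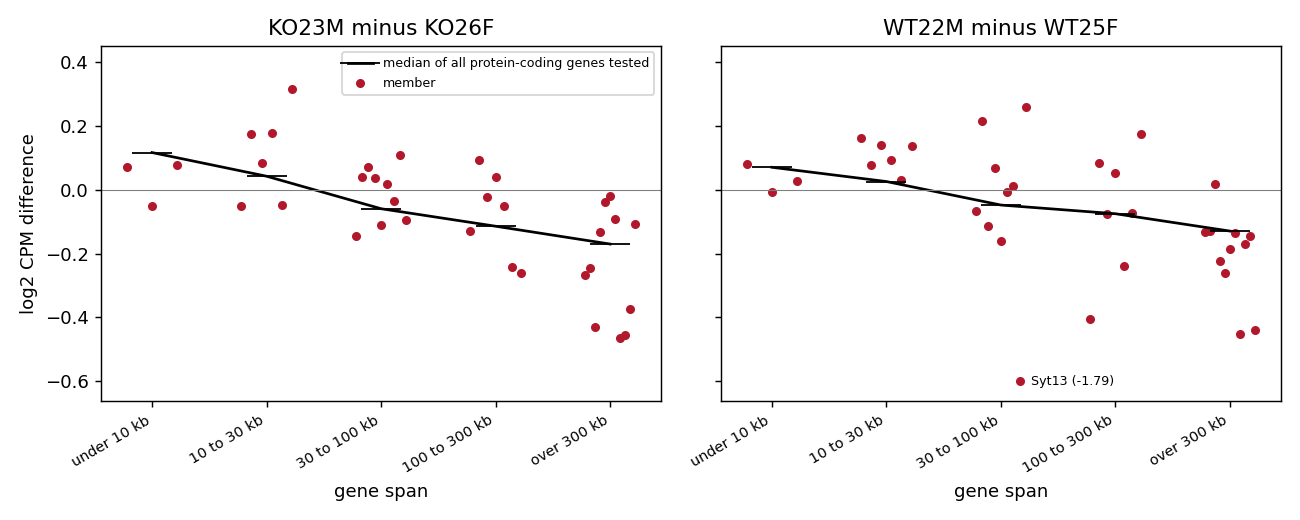
Log2 CPM difference between the M and the F library within the KO libraries (left) and within the carriers (right), by gene span, with 1 point for each of the 36 genes and a line through the median of all protein-coding genes tested in each class. The line falls from 0.12 to -0.17 on the left and from 0.070 to -0.13 on the right, and the 11 genes over 300 kb lie below 0 on the left.

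**Figure D4:**
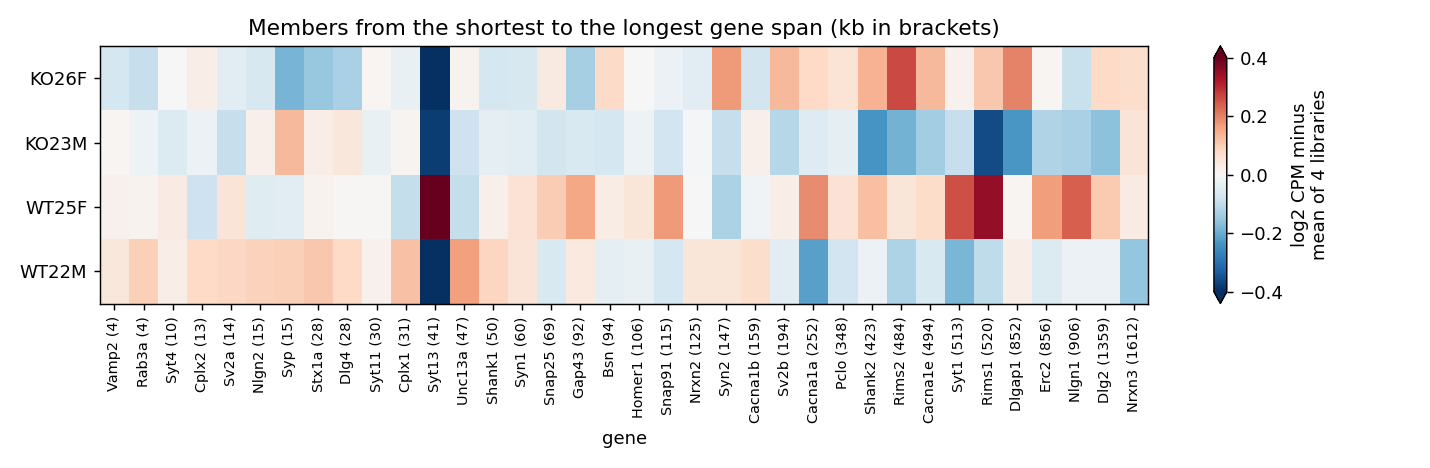
Difference of each library's log2 CPM from the mean of the 4 libraries for each of the 36 genes, ordered from the shortest to the longest span, with colours limited at 0.4 either way. The row of KO23M is mostly below 0 among the longest genes on the right, and Syt13 in WT25F exceeds the colour range.

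The next comparisons use WT25F alone as the control, because it is wild type under both of its labels. The KO against WT25F and the WT22M against WT25F contrasts share that library, and the spread comes from the KO pair only. In each, 1 of 36 genes passed the threshold and it was Syt13, at backgrounds of 0.345% and 0.714% of genes called. With no low-count filter neither call held, with edgeR adjusted p-values of 0.777 and 0.979, and 0 of 22084 genes passed. On simulated data both the contrast of the single libraries and KO against carriers made more false calls than the threshold allows. With 200 genes changed, KO against carriers made 17 and called 32.8% of those changed 1.5-fold. WT22M against WT25F made 71 false calls and called 19.4% of those changed 1.5-fold. The median log2 fold change of the 36 was -0.060 for KO against WT25F, with 28 below 0, against 49.1% of all genes tested. For WT22M against WT25F it was -0.037, with 20 below 0, against 50.5% of all genes tested.

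Syt13 (ENSMUSG00000027220, chr2:92915098-92956058, plus strand) encodes an atypical synaptotagmin that lacks the calcium-binding residues of Syt1. It had 302 and 323 counts in the KO libraries KO26F and KO23M, 294 in WT22M and 1052 in WT25F. In the same order these are 16.7, 17.5, 16.5 and 58.6 CPM. The library WT25F was 3.36-fold to 3.55-fold above each of the others, which spanned only 1.06-fold among themselves. The log2 fold change was -1.77 (SE 0.17, edgeR adjusted p 6.4e-22) for KO against WT25F and -1.80 (SE 0.21, edgeR adjusted p 1.88e-14) for WT22M against WT25F. Set against both carriers, the KO value was -1.13 (SE 0.86) and did not pass. Without WT25F it was 0.023, and without WT22M it was -1.77 and passed, so 1 library decides this gene.

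No other tested gene nearby was high in WT25F alone. Within 1 Mb there were 26 tested genes, Syt13 included. Its neighbour Prdm11 stood at 37.1, 35.5, 37.0 and 38.6 CPM in KO26F, KO23M, WT25F and WT22M, and Chst1, on its other side, at 48.5, 50.1, 60.02 and 53.7. None of the others reached a level in WT25F of 1.5-fold above the next library. Of 14807 genes with a mean of at least 1 CPM, 15 were at least 2-fold above all other libraries in WT25F. Syt13 was the third of these by ratio, after Tcf7l2 and Ptgds, and the 15 include Irx1, Olig3, Gbx2 and Rora.

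Tcf7l2, Gbx2, Olig3 and Irx1 are transcription factors of the developing thalamus and its neighbours, and belong to a list of 10 diencephalon markers. Tcf7l2 stood at 11.1, 9.72, 46.1 and 7.87 CPM in KO26F, KO23M, WT25F and WT22M, and Gbx2 at 1.82, 2.76, 7.02 and 1.97. Lhx9 was at 18.9, 16.2, 26.2 and 17.1. Of the 10 markers, 8 were highest in WT25F and 0 were without counts in all libraries. The list sums to 506, 485, 510.5 and 477 CPM. Most of each sum came from Lhx2, at 414, 389, 359.5 and 387 CPM in the same order, lowest in WT25F. Lhx2 and Six3, which the telencephalon also expresses, were the markers of the list not highest in WT25F. The part of these genes in the Syt13 level was not tested.

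**Figure D5:**
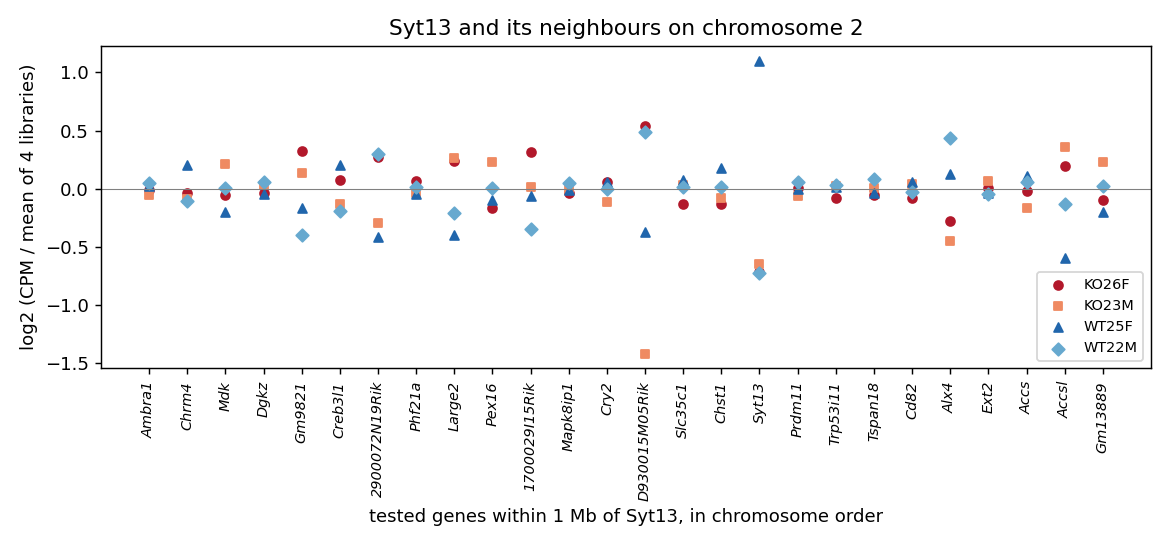
Log2 ratio of each library's CPM to the mean of the 4 libraries for Syt13 and the other tested genes within 1 Mb, in chromosome order. Syt13 in WT25F is the highest point, at 58.6 CPM, while Prdm11 and Chst1 beside it stay near 0 in all libraries.

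Other genes were also highest in WT25F without passing. Rims1, at -0.46 (SE 0.20) for KO and -0.45 (SE 0.24) for WT22M, and Syt1, at -0.30 (SE 0.15) and -0.44 (SE 0.18), were among them, and their adjusted p-values in edgeR were 0.9999 and 0.9976 for Rims1 and 0.9999 and 0.619 for Syt1. The values of Syt1 were 89.4, 80.4, 105 and 75.8 CPM in KO26F, KO23M, WT25F and WT22M.

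The authors' deposited tables compare KO26F, KO23M and WT22M each with WT25F, and so share that library and hold 1 library a side. Their mark of significance, which needs an adjusted p under 0.05 and a change of at least 2-fold, was given to 1 of 36 genes in each table, and each time to Syt13. The background was 1.96% of genes for KO26F, 2.90% for KO23M and 3.62% for WT22M. By adjusted p alone, the authors' deposited table for KO26F held 11 lower and 3 higher of the 36, at backgrounds of 6.40% and 7.26%. That for KO23M held 18 lower and 1 higher, at 13.0% and 9.07%, and that for WT22M 12 lower and 5 higher, at 13.4% and 8.93%. Gap43, Snap91, Syt1 and Syt13 were lower by that measure in all 3 of the authors' deposited tables. For Gap43 the log2 fold changes were -0.28 (KO26F), -0.25 (KO23M) and -0.15 (WT22M). A gene high in WT25F alone can be lower in each table, since all 3 use that library. How many of all genes were lower in all 3 was not computed, so this list is not read as a trait of the synaptic genes. A test on 2 libraries compares those libraries, not the genotypes.

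A wider list of 91 other synaptic genes from the same roles was followed beside the 36, and 90 of them were tested. Between KO and carriers 0 of 90 passed in edgeR, 55 had a log2 fold change below 0 and the median was -0.033. The relatives of the active zone scaffolds had 10 of 12 below 0 with a median of -0.095, and those of the adhesion genes 6 of 8 with a median of -0.11. The relatives of the vesicle proteins had 9 of 21 below 0 (median 0.0048), of the fusion machinery 9 of 16 (-0.0084), of the calcium channels 6 of 10 (-0.0099) and of the postsynaptic scaffolds 6 of 11 (-0.0076). Those of vesicle recovery had 5 of 6 (-0.054) and of the growth cone 4 of 6 (-0.031). The smallest unadjusted p belonged to Ppfia4, which encodes a liprin of the active zone, at 27.7 and 31.9 CPM in KO26F and KO23M and 31.9 and 42.4 in WT25F and WT22M (-0.32, SE 0.14, edgeR unadjusted p 0.0375, adjusted p 0.9997). The next was Cntnap2, a relative of the neurexins, which had the opposite sign, at 129.5 and 121 CPM against 115 and 101 (0.21, SE 0.10). Rims4, a short RIM protein, gave 34.1 and 33.6 CPM against 39.7 and 39.6 (-0.23, SE 0.11), and the synaptotagmin Syt5 gave 126 and 131 against 140.3 and 153 (-0.20, SE 0.10). Between the single libraries WT22M and WT25F 1 of 90 passed, beside the 0.714% of all genes given above. It was Sh3gl2, which encodes endophilin A1 of vesicle retrieval, at 37.7 CPM in WT25F and 59.0 in WT22M (0.68, SE 0.18, edgeR adjusted p 0.0225). Its KO values of 48.1 and 44.9 lay between those of the carriers.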

How the data were processed

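Per the labels' protocols, 4 libraries were prepared from total RNA with a TruSeq kit. The submitters' processing notes name the tools HTSeq 0.6.0, TopHat2 2.0.12 and Bowtie2 2.2.3, and the build mm9. The deposited positions match GRCm38, since 20237 of 22039 genes (91.8%), and 32 of the 36 described, have the identical position in GENCODE vM21. The exceptions among the 36 are Syt4, Rims2, Dlg2 and Dlg4. The sources used here give no settings for strand or for reads that match several places.

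Each of the 3 tables the authors deposited sets 1 library beside WT25F and holds raw counts per gene, per the file headers. They also hold the authors' normalized CPM values, log2 fold changes, p-values and adjusted p-values. Here the tables were joined by gene, a missing gene was set to 0, and CPM was recomputed from the joined totals. Dlg2 has a second identifier of a noncoding transcript with 4 to 9 counts per library, and the protein-coding row was used. Exon length is the union of all GENCODE exons.

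The test was edgeR 4.0.16's quasi-likelihood test on counts of 16252 genes (TMM, filterByExpr, robust fit, Benjamini-Hochberg threshold 0.05). The comparisons with WT25F used a 3-group fit, where single libraries are assumed to vary like the KO pair. P-values measure the spread between these libraries, and with 2 libraries a group small changes are not detectable. The genes and all lists were chosen with earlier results of these data known. Values in each library are given for genes past the threshold and, in each role, for the gene with the highest level and the one with the smallest p in KO against carriers. Of the 91 other synaptic genes, those past the threshold and the 4 with the smallest p are named. Other named genes, the length classes and the promoters were chosen after values were seen. Alternatives were RLE factors, DESeq2 1.42.0, limma voom (3.58.1), other filters, a fit without X and Y genes, a block for the title letter, and leaving out single libraries. Simulated data with known changes were used to test the code (R 4.3.3, Python 3.11.15).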

Additional observations from a re-analysis of the deposited data

Results flagged for a closer look

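For 4 genes the KO to carrier ratio had opposite signs in the F pair (KO26F and WT25F) and the M pair (KO23M and WT22M), each beyond counting error alone, at the 95% level. With 1 library on each side of a pair, the difference between the pairs was not tested. Counting error leaves out the spread between libraries. The share of all genes tested that meets this rule was not computed, so the count is not read as a trait of these genes. The log2 ratio in the F pair less that in the M pair was 0.45 for Syn2, from 0.31 and -0.14. It was 0.46 for Dlgap1, from 0.20 and -0.26, and 0.37 for Unc13a, from 0.12 and -0.25. For Cplx2 it was 0.22, from 0.12 and -0.10. In all 4 the F pair was above 0 and the M pair below.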

How the results depend on the processing

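For KO against carriers 0 of the 36 genes passed under RLE factors, DESeq2, limma voom, no filter, a filter of 1 CPM in 2 libraries and without genes on X and Y, and with the title letter as a replicate block the count was also 0, while the calls over all genes went from 10 to 123. The median log2 fold change with that replicate block was -0.056. With each library left out in turn the count ran from 0 to 1, the 1 being Syt13 without WT22M, and the median from -0.089 (without KO26F) to -0.033 (without WT25F). Values on both sides of 0 were had for Snap91 (-0.22 without WT22M to 0.018 without WT25F), Bsn (-0.069 without KO26F to 0.080 without KO23M), Nlgn2 (-0.12 without WT25F to 0.025 without WT22M) and Syt13 (-1.77 without WT22M to 0.023 without WT25F). Against WT25F alone, with KO26F or KO23M left out, the median was -0.10 or -0.054, as values with no test. With no filter the count fell to 0 in KO against WT25F and to 0 in WT22M against WT25F, where 0 of 22084 genes passed, and Syt13 kept -1.77 and -1.79 with edgeR adjusted p-values of 0.777 and 0.979. Without genes on X and Y the WT22M against WT25F median was -0.072, and over the longest transcript the median level per kb was 15.8. The cause of these shifts was not tested.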
